A study of Mus musculus with 9 samples.

Results

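The data are a comparison of 2 groups of mouse dentate gyrus, E1 and E4, taken here as stages of one response. By background knowledge and not by the labels, these were 1 h and 4 h after stimulation. The authors' deposited tables compare each stage with E0, and a gene was followed where both tables list its symbol and give it a mean normalised count of at least 50. This held for 9818 of the 23988 symbols shared by the tables, which list 24015 genes each. The quantity described throughout is the E4 change minus the E1 change in log2 units, named the difference here: it is positive where a transcript was higher in E4 than in E1 and negative where it was lower.

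The 3 groups, E0, E1 and E4, hold 3 mice each, and all 9 were C57BL/6 adults of 8 weeks. No transgene, deletion or drug is named for any of them, the dentate gyrus was dissected under the microscope, and each mouse gave its own library of total RNA. What the number after E counts is not labelled, nor is a treatment. As background to the study, E0 stands for unstimulated mice and the numbers for hours after electroconvulsive stimulation, a brief seizure that drives granule neurons to fire together. E0 was taken as the reference of both tables, from their names and headers and from the depths recovered from them. On that reading a difference between E4 and E1 is free of the E0 level itself, although its error enters through both tables. The tables hold no value per mouse. In place of individual values, approximate group means are given on the count scale of the E1 table, recovered from the mean count and the fold change of each gene with its shrinkage undone, so that their ratio need not equal the difference, which uses the fold changes as the authors deposited them. The ratio is mostly larger than the difference, but smaller for some genes, among them Arc and Adam19. The error given after ± is the SE of the difference. Levels above, below or near E0 follow the calls in the authors' deposited tables.

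Neurons answer strong firing in waves. The first wave consists of immediate early genes, which are switched on by kinases and calcium acting on factors already present at their promoters, need no new protein, and mostly code for transcription factors and short-lived regulators. Their products, with feedback inhibitors such as kinase phosphatases, then shape a later wave of receptors, channels, secreted peptides and adhesion proteins, while many first-wave messages are degraded within hours.

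Of the 9818 genes, 3936 were called (40.1%). Of these, 1946 were called higher in E4 than in E1 (19.8%) and 1990 lower (20.3%), at an adjusted p below 0.05 (normal test of the difference, Benjamini-Hochberg over all 17652 genes with a value in both tables). Counts for the gene lists below are to be read against these shares. Over all 17652 genes tested, 2149 were called higher (12.2%) and 2666 lower (15.1%). Among the genes followed, the 2 directions were alike in number and unlike in size. The median absolute difference was 0.93 among the genes called lower and 0.79 among those called higher, 879 against 580 differed by at least 1 log2 unit, 156 against 55 by at least 2, and 32 against 6 by at least 3. The median difference over all genes followed was 0.04. The authors' deposited tables call 23.1% genes raised and 21.0% lowered in E1, and 27.0% raised and 23.1% lowered in E4.

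**Figure D1:**
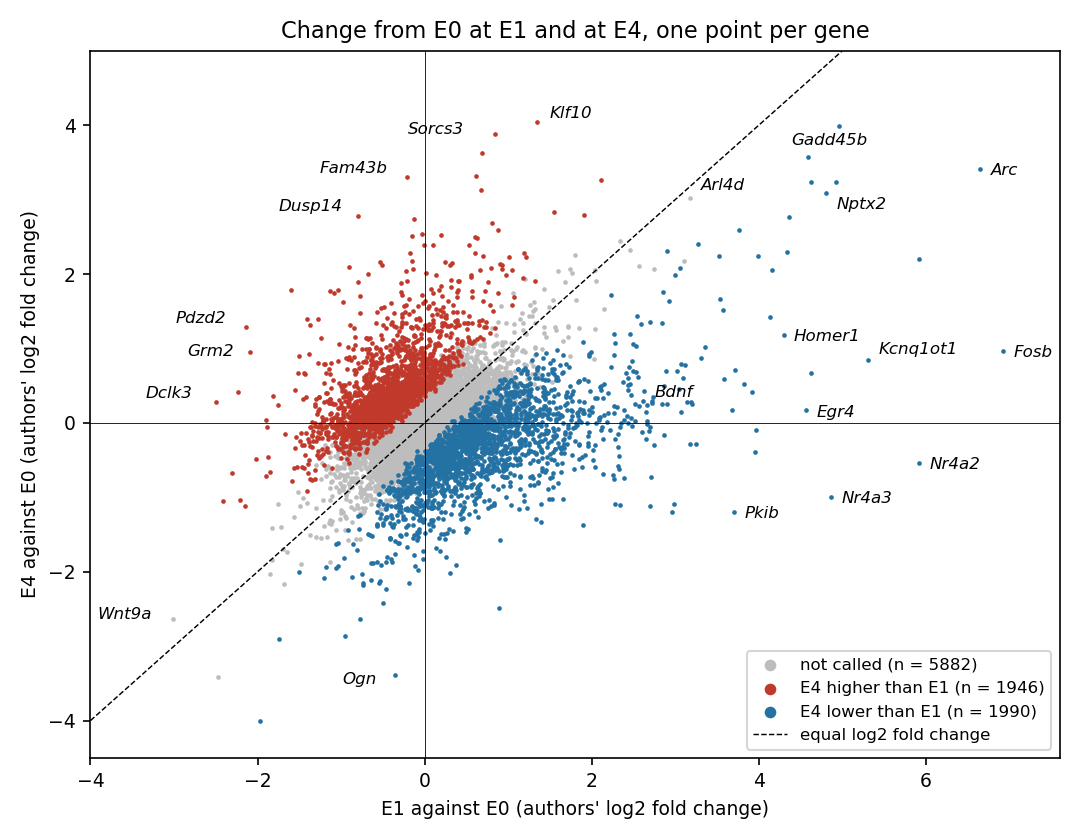
Each point is 1 of the 9818 genes, placed by the authors' log2 fold change against E0 in E1 (horizontal axis) and in E4 (vertical axis), and coloured by the call of the difference. The 1990 genes called lower lie below the dashed line of equal change and reach out to the right with Fosb and Nr4a2, and the 1946 called higher lie above it and reach up to Klf10 and Sorcs3.

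Promoters of 6 first-wave genes and 1 late gene are shown because 6 of the 15 largest drops were immediate early transcription factors; of these, Nr4a1, Nr4a2, Nr4a3, Fosb and Egr4 are shown, with Homer1 as an early gene of the synapse. The letters are the 250 bases before the RefSeq start of each gene in build GRCm38.p6, 5′ to 3′ on the gene's strand, and capitals mark every core CRE (TGACG on either strand, read as CGTCA on the other), the short form of the cAMP response element bound by CREB-type factors.

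Nr4a1 (chr15:101266596-101266845, plus strand): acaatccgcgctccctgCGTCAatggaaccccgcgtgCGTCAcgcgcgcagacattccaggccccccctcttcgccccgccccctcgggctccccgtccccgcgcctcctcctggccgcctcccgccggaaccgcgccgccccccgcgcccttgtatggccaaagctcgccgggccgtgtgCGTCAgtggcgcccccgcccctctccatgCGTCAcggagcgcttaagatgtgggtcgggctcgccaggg

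Nr4a2 (chr2:57124004-57124253, minus strand): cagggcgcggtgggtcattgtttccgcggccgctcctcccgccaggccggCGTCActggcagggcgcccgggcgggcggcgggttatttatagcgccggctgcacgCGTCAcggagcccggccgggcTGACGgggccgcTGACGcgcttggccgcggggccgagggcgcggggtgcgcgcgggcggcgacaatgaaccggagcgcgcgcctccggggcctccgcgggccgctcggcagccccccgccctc

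Nr4a3 (chr4:48045055-48045304, plus strand): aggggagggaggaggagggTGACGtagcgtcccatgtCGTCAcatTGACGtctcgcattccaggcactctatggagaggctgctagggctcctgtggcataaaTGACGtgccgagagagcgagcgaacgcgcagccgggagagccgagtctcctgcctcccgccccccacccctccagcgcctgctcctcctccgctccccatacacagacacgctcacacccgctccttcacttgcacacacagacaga

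Egr4 (chr6:85513590-85513839, minus strand): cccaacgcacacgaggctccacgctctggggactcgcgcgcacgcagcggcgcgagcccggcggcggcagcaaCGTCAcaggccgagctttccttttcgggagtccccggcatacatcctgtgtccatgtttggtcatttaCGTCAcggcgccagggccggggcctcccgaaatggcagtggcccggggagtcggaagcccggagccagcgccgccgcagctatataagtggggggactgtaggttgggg

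Fosb (chr7:19310046-19310295, minus strand): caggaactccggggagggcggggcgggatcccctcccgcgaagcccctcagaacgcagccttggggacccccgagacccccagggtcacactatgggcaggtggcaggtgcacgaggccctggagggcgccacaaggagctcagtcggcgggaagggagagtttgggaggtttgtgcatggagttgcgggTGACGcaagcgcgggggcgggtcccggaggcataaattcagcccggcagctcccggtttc

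Homer1 (chr13:93303507-93303756, plus strand): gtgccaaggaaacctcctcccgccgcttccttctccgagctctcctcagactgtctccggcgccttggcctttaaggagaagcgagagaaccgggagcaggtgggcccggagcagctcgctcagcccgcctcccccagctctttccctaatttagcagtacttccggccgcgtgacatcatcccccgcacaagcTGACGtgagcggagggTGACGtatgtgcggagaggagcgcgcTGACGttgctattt

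Sorcs3 (chr19:48205775-48206024, plus strand): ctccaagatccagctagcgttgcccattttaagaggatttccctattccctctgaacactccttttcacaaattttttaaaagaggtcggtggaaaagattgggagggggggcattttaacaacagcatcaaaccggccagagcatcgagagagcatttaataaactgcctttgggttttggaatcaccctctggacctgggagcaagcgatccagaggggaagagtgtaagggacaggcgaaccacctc

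The first 3 hold 4 core CREs each, Homer1 holds 3, Egr4 holds 2 and Fosb holds 1. Sorcs3, among the largest gains, holds 0. These 7 promoters and the core motif itself were picked after the letters and values had been seen, so they describe these genes and no more. A match is not evidence of binding. Of 18 immediate early transcription factors followed, 14 had an entry in the RefSeq table, and 9 of the 14 (64.3%) held a core CRE, 5 of them (35.7%) at least 2. The same held for 28.9% (7.71% with at least 2) of the 7910 genes followed that had an entry, and for 17.9% (4.02%) of all 27025 promoters of the table. A full CRE, TGACGTCA, holds the core on both strands and counts in these shares as 2 core CREs. It was found in 0 of the 14 immediate early promoters. Egr1, Egr3, Klf10 and Crem were without an entry.

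In the wider sets a core CRE was found in a smaller share of promoters than over all genes followed (28.9%, with 7.71% holding at least 2). Among genes lower in E4 by at least 2 and raised in E1, 34 of 123 promoters held it (27.6%). In this set 10.6% held at least 2, which was above the share over all genes followed. Among genes higher in E4 by at least 1.5 and raised in E4, 21 of 119 did (17.6%, with 2.52% holding at least 2). The full CRE (TGACGTCA, which contains the core CRE on both strands and counts as 2 of them above) was found in 3.25% of the first set and 0.84% of the second. The AP-1 site TGACTCA was found in 2.44% and 4.2%, and the E-box CACGTG in 10.6% and 11.8%. Over all genes followed, the full CRE was found in 3%, the AP-1 site in 2.44% and the E-box in 8.9%. The Egr site GCGTGGGCG (1.63% and 0.84%), the Nr4a site AAAGGTCA (0.813% and 0.84%) and the CArG box (0.813% and 0) were rare in both sets, and over all genes followed they stood at 1.06%, 0.594% and 1.04%. All were searched on both strands. The coordinates belong to GRCm38.p6, not to the older build named for the deposited data.

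The transcription factors of the first wave fell from E1 to E4. Of 18 followed, 15 were called lower and 2 higher, with 1 not called, and their median difference was -1.96 against 0.04 over all genes. The 3 Nr4a genes, orphan nuclear receptors, stood among the 11 largest drops. Nr4a2 was at about 59.6 in E0, 3946 in E1 and 39.7 in E4, a difference of -6.46 ± 0.27 (adjusted p = 5.2e-121). Its level rose and then ended below the starting one, narrowly by the authors' Wald test (log2 fold change -0.54 in E4, adjusted p = 0.0444). Nr4a3 took the same course, with 60.7 in E0, 1877 in E1 and 28.8 in E4 and a difference of -5.85 ± 0.29. Nr4a1 was at 51.5 in E0, 1384 in E1 and 84.7 in E4 (-3.96 ± 0.26), so that it alone of the 3 was still above its E0 level in E4.

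Among the AP-1 genes, whose proteins pair as Fos and Jun dimers, Fosb was at 25.7 in E0, 3548 in E1 and 53.9 in E4 (-5.95 ± 0.29, adjusted p = 7.5e-90). For the genes of its partners the difference lay closer to 0. Junb had a difference of -2.43 ± 0.19, Jun of -1.19 ± 0.14 and Jund of -1.08 ± 0.21, and the Fos relative Fosl2 of -1.87 ± 0.17. Egr4, a zinc finger factor of the Egr family, was at 57.5 in E0, 1490.4 in E1 and 65.2 in E4 (-4.40 ± 0.27) and was back near E0. Egr1 and Egr3 of the same family were at 178 in E0, 2491 in E1 and 296 in E4 (-3.001 ± 0.20) and 617 in E0, 12852 in E1 and 3112 in E4 (-2.05 ± 0.14), both lower than in E1 and above E0. Atf3, a stress-induced factor of the CREB group, was at 9.24 in E0, 748 in E1 and 55.4 in E4 (-3.71 ± 0.40).

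Klf10 and Cebpb went against the rest of the list, and Ier5 was not called. Klf10, a zinc finger factor induced by TGF-beta, was at 88.9 in E0, 233 in E1 and 1583 in E4, a gain of 2.70 ± 0.22 (adjusted p = 6.5e-31). Cebpb, a leucine zipper factor, was at 100.5 in E0, 151 in E1 and 417 in E4 (1.43 ± 0.28). Ier5, an immediate early regulator of heat shock factor activity, was at 226 in E0, 1200.1 in E1 and 1279.6 in E4, and its difference of 0.10 ± 0.21 did not pass the test (adjusted p = 0.843).

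**Figure D2:**
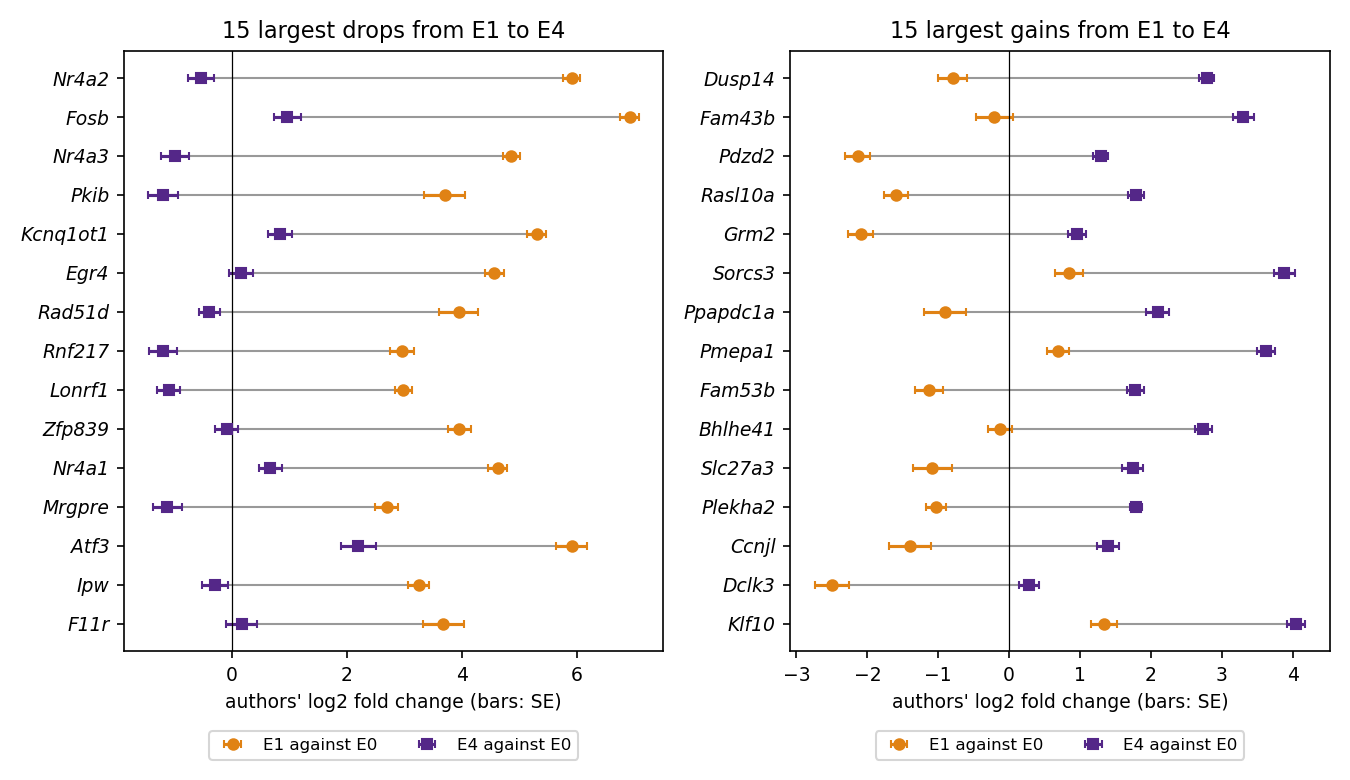
Points give the authors' log2 fold change against E0 in E1 (circles) and E4 (squares) with its SE, for the 15 largest drops (left) and the 15 largest gains (right) from E1 to E4. All 15 drops start far above 0, and 4 of them (Atf3, Fosb, Kcnq1ot1 and Nr4a1) were still called raised in E4 in the authors' deposited table, while the rest end near or below 0.

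The other large drops came from genes of varied function. Kcnq1ot1, a long noncoding RNA of an imprinted region, was at 60.01 in E0, 2640.4 in E1 and 113 in E4 (-4.46 ± 0.27); reads of the overlapping Kcnq1 may be mixed with its own, since it is not given whether counting used strand. Ipw, a noncoding transcript of another imprinted region, was at 66.0 in E0, 674 in E1 and 53.6 in E4 (-3.54 ± 0.29). Lonrf1, a ring finger protein gene, was at 89.4 in E0, 737 in E1 and 40.02 in E4 (-4.08 ± 0.25) and the ring finger gene Rnf217 at 58.1 in E0, 494 in E1 and 23.6 in E4 (-4.16 ± 0.32). Both ended below E0. Mrgpre, a Mas-related G protein-coupled receptor, was at 39.0 in E0, 271 in E1 and 16.6 in E4 (-3.81 ± 0.33), and Zfp839, a zinc finger gene, at 63.0 in E0, 1084 in E1 and 59.4 in E4 (-4.05 ± 0.28).

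For 3 of the 15 largest drops the SE in the authors' deposited table for E1 was far above that of genes of like mean count. The ratio was 3.01 for Rad51d, a recombination repair gene, 2.56 for Pkib, an inhibitor of protein kinase A, and 2.42 for F11r, a junctional adhesion molecule. For Fosb, Kcnq1ot1, Zfp839 and Atf3 it was 1.57, 1.61, 1.55 and 1.88, and for the other 8 of the 15 it lay below 1.5. Rad51d was at 85.8 in E0, 1867 in E1 and 65.4 in E4 (-4.34 ± 0.39), Pkib at 39.9 in E0, 751 in E1 and 16.0 in E4 (-4.90 ± 0.44) and F11r at 33.1 in E0, 609 in E1 and 38.1 in E4 (-3.51 ± 0.45). Such SEs may come from unequal libraries, in which case the group means rest on them. Which libraries differed cannot be seen, since no value per mouse is at hand. An SE over 1.5 times that of like genes was found for 60 of the 9818 genes, for 18 of the 156 that dropped by at least 2 and for 1 of the 55 that gained by at least 2. In the table for E4 it was found for 82 genes, 9 of these drops and 5 of these gains. Among genes described below, the ratio of the E4 SE in the authors' deposited table was 3.61 for Arc, 2.90 for Lingo1, 2.83 for Cpne7, 2.67 for Gfap, 2.58 for Snhg11, 2.45 for Neurod6, 2.45 for Meg3, 2.29 for Dusp4 and 2.26 for Adam19. Their E4 means call for the same caution.

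Synaptic and secreted products of activity went both ways, with 16 of 28 lower, 7 higher and 5 not called (median -1.34). When the shrinkage was undone with the narrowest prior that the largest SE allows, 15 were lower and the median was -0.58. Homer1, a postsynaptic scaffold with a short activity-induced form, was at 279 in E0, 5640.1 in E1 and 646 in E4 (-3.11 ± 0.16, adjusted p = 8.1e-84). Arc, whose product draws AMPA receptors away from the synapse, was at 126 in E0, 13824 in E1 and 2229.9 in E4, a difference of -3.24 ± 0.36; it turned to 0.79 (adjusted p = 0.234) under the same setting. Plk2, a kinase of synaptic scaling, was at 631 in E0, 6607 in E1 and 1299 in E4 (-2.34 ± 0.15) and Bdnf, a neurotrophin of synaptic plasticity, at 386 in E0, 2444 in E1 and 526 in E4 (-2.19 ± 0.17). Fbxo33, a substrate adaptor of ubiquitin ligases, was at 254 in E0, 1934 in E1 and 227 in E4 (-3.03 ± 0.19), back near E0. Nptx2, a pentraxin that gathers AMPA receptors, fell as well but kept a high level, with 89.8 in E0, 2745 in E1 and 835 in E4 (-1.71 ± 0.22).

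Members of the same list that were higher in E4 included Sorcs3, a sorting receptor, at 82.0 in E0, 151 in E1 and 1333 in E4 (3.03 ± 0.25, adjusted p = 3.4e-31). Lingo3 and Lingo1, leucine-rich repeat proteins of the neuronal surface, had differences of 1.74 ± 0.26 and 1.16 ± 0.30. The pentraxin gene Nptx1 was at 5191 in E0, 5331 in E1 and 12553 in E4 (1.22 ± 0.15) and Nrn1, a growth-promoting membrane protein gene, at 1935 in E0, 4079.9 in E1 and 6356 in E4 (0.63 ± 0.13). Dclk1, a doublecortin-like kinase, had a difference of 1.24 ± 0.12 and the enkephalin precursor Penk of 0.90 ± 0.23. The list thus held genes that peaked in E1 beside others whose highest mean was in E4. Without marker genes and genes of large E1 SE, an alternative chosen after the data were seen, 4 of 21 were higher.

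Feedback regulators of kinase and cytokine signalling were lower in 14 of 22 cases, higher in 4 and not called in 4 (median -1.25). Dusp6, a phosphatase of ERK kinases, was at 116 in E0, 706 in E1 and 139 in E4 (-2.27 ± 0.23), and Dusp1 and Dusp4 had differences of -2.35 ± 0.30 and -1.75 ± 0.32. Errfi1, an inhibitor of the EGF receptor, was at 211 in E0, 1183 in E1 and 304 in E4 (-1.92 ± 0.19), and Spry2 and Spry4, inhibitors of receptor kinase signalling, had differences of -1.94 ± 0.19 and -1.58 ± 0.32. Dusp14 and Trib2 led the 4 exceptions. Dusp14, a phosphatase of the same family, was at 224 in E0, 126 in E1 and 1602 in E4, the largest gain of all genes followed at 3.58 ± 0.23 (adjusted p = 7.9e-53). Trib2, a pseudokinase, was at 301 in E0, 295 in E1 and 1829.8 in E4 (2.57 ± 0.20), Spry1 had a difference of 1.29 ± 0.30 and the salt-inducible kinase gene Sik3 of 0.84 ± 0.20. Dusp14 was lowest in E1 and highest in E4, and Trib2 was level between E0 and E1.

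Activin, BMP and TGF-beta signalling was the signalling list with the highest median difference, 0.53, with 11 of 21 higher, 5 lower and 5 not called. In this pathway, secreted dimers bind paired receptor kinases that phosphorylate Smad proteins, which enter the nucleus. The ligand gene Inhba, which codes for the activin A subunit, fell from its E1 level, at 13.3 in E0, 414 in E1 and 150.1 in E4 (-1.39 ± 0.34). Receptor genes gained: Acvr1c was at 114 in E0, 179 in E1 and 1197 in E4 (2.69 ± 0.22, adjusted p = 1.3e-31), and Acvr1, Tgfbr2, Bmpr2 and Bmpr1a had differences of 1.39 ± 0.21, 1.03 ± 0.32, 0.66 ± 0.14 and 0.46 ± 0.18. Acvr2a, a type II activin receptor, was lower (-0.44 ± 0.17).

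Downstream of these receptors, Smad3, a signal transducer, was at 724 in E0, 481 in E1 and 1867 in E4 (1.93 ± 0.17), while Smad1, of the BMP branch, was lower (-1.41 ± 0.28). The inhibitors split. Pmepa1, induced by TGF-beta and a brake on it, was at 175 in E0, 285 in E1 and 2283 in E4 (2.93 ± 0.20, adjusted p = 1.5e-47), and the Smad corepressor genes Skil and, outside this list, Ski were at 581 in E0, 1355 in E1 and 2793 in E4 (1.02 ± 0.14) and 1304 in E0, 1526 in E1 and 3897 in E4 (1.33 ± 0.15). Smad7, which blocks the receptors, was lower (-1.28 ± 0.24), at 64.7 in E0, 800.2 in E1 and 332 in E4. Pmepa1, Skil and Ski were thus highest in E4, and Smad7 in E1.

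**Figure D3:**
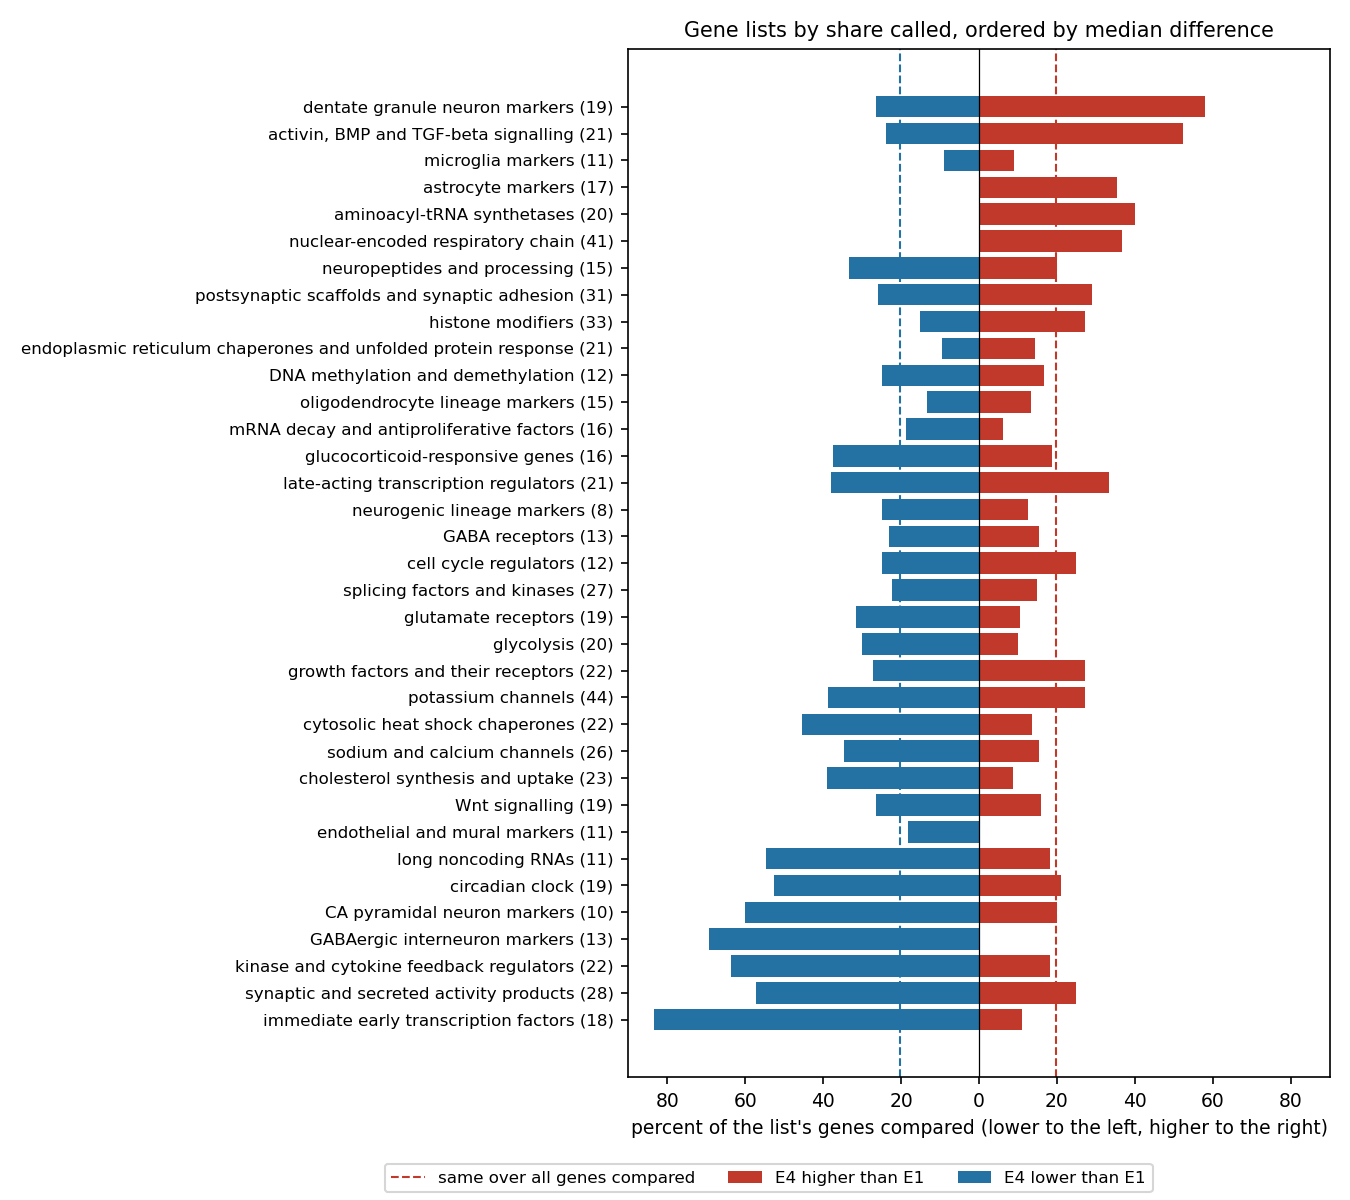
Bars give the percent of each list's genes (number followed in brackets) called higher in E4 than in E1 (right, red) or lower (left, blue), for the 35 lists with at least 8 genes followed, ordered by median difference, with dashed lines at the shares over all genes followed (19.8% and 20.3%). Granule neuron markers and TGF-beta signalling stand at the top, and immediate early transcription factors, with 15 of 18 lower, at the bottom.

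Growth factors and their receptors were split evenly, with 6 of 22 higher, 6 lower and 10 not called. Beside Bdnf, Fgf9 was lower, at 55.3 in E0, 137 in E1 and 26.1 in E4 (-2.16 ± 0.37). Pdgfb, a platelet-derived growth factor chain, was higher, at 93.6 in E0, 145 in E1 and 485 in E4 (1.68 ± 0.26), as was Hbegf (1.03 ± 0.33). Among receptors, Ntrk3 and Ntrk2, which bind neurotrophins, were higher in E4 (0.75 ± 0.18 and 0.39 ± 0.12), and Igf1r lower (-0.67 ± 0.22). In the Wnt list 3 of 19 were higher, 5 lower and 11 not called, beside 40.1% of all genes followed called either way. Wnt7b, a ligand of dendrite growth, was at 595 in E0, 215 in E1 and 945 in E4 (2.09 ± 0.19), and Dkk3, a dickkopf relative, at 314 in E0, 1259.7 in E1 and 276 in E4 (-2.14 ± 0.20). The Wnt amplifier gene Rspo3 was at 69.7 in E0, 65.3 in E1 and 15.6 in E4 (-1.89 ± 0.35), and Frzb, a secreted Wnt antagonist, at 387 in E0, 259.7 in E1 and 144 in E4 (-0.82 ± 0.19), stepwise lower over the groups.

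Of 15 genes of neuropeptides and their processing, 3 were higher, 5 lower and 7 not called. Chga, chromogranin A of dense-core vesicles, was at 453 in E0, 449.9 in E1 and 2474 in E4 (2.40 ± 0.20, adjusted p = 2.2e-31), level in E1 and high in E4. Chgb, its relative, was already higher in E1, at 1345 in E0, 3389.9 in E1 and 5133 in E4 (0.58 ± 0.13). Pcsk1, a protease that cleaves peptide precursors, was at 31.3 in E0, 261 in E1 and 106 in E4 (-1.29 ± 0.29), and the peptide genes Cck and Adcyap1 were lower than in E1 (-0.79 ± 0.21 and -1.07 ± 0.32).

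Among glutamate receptors 6 of 19 were lower, 2 higher and 11 not called, beside 40.1% of all genes followed called either way. Grm2, a group II metabotropic receptor that damps release, was at 1097 in E0, 246 in E1 and 2157 in E4, with a gain of 3.05 ± 0.22 (adjusted p = 1.1e-42). It was lowest in E1 and highest in E4. The NMDA receptor subunit gene Grin2a was at 446 in E0, 479.6 in E1 and 869 in E4 (0.84 ± 0.20), and the AMPA receptor subunit genes Gria3 and Gria4 at 595 in E0, 1194 in E1 and 713 in E4 (-0.74 ± 0.17) and 117 in E0, 261 in E1 and 114 in E4 (-1.15 ± 0.25). After removal of a trend with length and GC content of transcripts, 3 of 19 were lower.

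The GABA receptors had 2 of 13 higher, 3 lower and 8 not called, beside 40.1% of all genes followed called either way. Gabra4, the alpha 4 subunit of extrasynaptic receptors, was at 932 in E0, 745 in E1 and 1929 in E4 (1.35 ± 0.15), while Gabra3 and Gabra2 were at 35.9 in E0, 143 in E1 and 29.0 in E4 (-2.13 ± 0.37) and 623 in E0, 1246 in E1 and 704 in E4 (-0.81 ± 0.17). Gabrd, the delta subunit that joins alpha 4 in granule neurons, was at 327 in E0, 101 in E1 and 95.4 in E4 and did not pass the test (-0.09 ± 0.21, adjusted p = 0.861). Gabrd was lowered against E0 in both of the authors' deposited tables.

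Potassium channels changed in 29 of 44 cases, 12 higher and 17 lower, with 15 not called. Those higher in E4 included Kcnk1, a two-pore subunit, at 907 in E0, 498 in E1 and 2225 in E4 (2.13 ± 0.17), Kcnip3, which binds Kv4 channels, at 441 in E0, 381 in E1 and 1695 in E4 (2.11 ± 0.19), and the Kv4 pore genes Kcnd2 and Kcnd3 (0.88 ± 0.15 and 1.12 ± 0.15). Lower were Kcnq5 and Kcnq3, subunits of the M-current, with differences of -3.02 ± 0.28 and -1.09 ± 0.24, and Kcnc2, a Kv3 subunit of fast-firing neurons, at 125 in E0, 645 in E1 and 90.6 in E4 (-2.76 ± 0.24). Kcnj2, an inward rectifier, had a difference of -2.50 ± 0.34 and the pacemaker channel gene Hcn2 of -1.05 ± 0.18. Kcnq5 was at 97.7 in E0, 492 in E1 and 55.6 in E4, below E0 in E4.

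Sodium and calcium channels were lower in 9 of 26 cases and higher in 4, with 13 not called. Scn1a, a sodium channel pore gene, was at 215 in E0, 498 in E1 and 102 in E4 (-2.23 ± 0.20), high in E1 and below E0 in E4. The sodium channel subunit gene Scn2b was at 1422 in E0, 1515 in E1 and 656 in E4 (-1.18 ± 0.18). The 4 genes that were higher all belong to calcium channels, as do 6 of the 9 that were lower. Cacnb1 was at 585 in E0, 604 in E1 and 1294 in E4 (1.08 ± 0.17), and the T-type pore genes Cacna1g and Cacna1h had differences of 1.04 ± 0.24 and 1.03 ± 0.19. With the length and GC trend removed, 7 of 26 were higher.

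Scaffold and adhesion genes of synapses were called in both directions. Of 31, 9 were higher, 8 lower and 14 not called, beside 19.8% higher and 20.3% lower over all genes followed. The PSD-95 family and its partners held 8 of those 9: Dlgap2 and Dlgap3 were at 235 in E0, 299.7 in E1 and 719 in E4 (1.24 ± 0.18) and 1216 in E0, 1062 in E1 and 2356 in E4 (1.13 ± 0.14), and Dlg3, Dlg4, Dlg1, Dlgap1, Shank1 and Dlgap4 had differences between 0.72 ± 0.15 and 0.42 ± 0.14. Nrxn2 was the remaining one (0.61 ± 0.15). Adhesion genes made up 7 of the 8 that were lower, among them Nrxn3 at 332 in E0, 855 in E1 and 369.9 in E4 (-1.18 ± 0.19), Nlgn1 (-0.89 ± 0.19) and Slitrk4 (-1.27 ± 0.28). This split into kinds was noticed after the values were seen. It was not set against the number of genes of each kind among the 31, so it describes the called genes only.

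Chromatin genes were called in both directions, and the share called either way was near the 40.1% over all genes followed. Of 33 histone modifiers 9 were higher, 5 lower and 19 not called (median 0.09). Lysine demethylase genes were among the 9, with Kdm4a at 462 in E0, 244 in E1 and 583 in E4 (1.23 ± 0.18), Kdm3a at 1.04 ± 0.24 and Kdm5b at 485 in E0, 351 in E1 and 712 in E4 (1.002 ± 0.16). Deacetylase genes included Hdac11 at 674 in E0, 759 in E1 and 309 in E4 (-1.28 ± 0.16) and Hdac9 at 159 in E0, 279.5 in E1 and 99.9 in E4 (-1.43 ± 0.22), both lower than in E1. Of 12 genes of DNA methylation 2 were higher, 3 lower and 7 not called. The methyltransferase gene Dnmt3a was at 387 in E0, 351 in E1 and 748 in E4 (1.08 ± 0.17) and the dioxygenase gene Tet3 at 354 in E0, 422 in E1 and 974 in E4 (1.18 ± 0.21). Gadd45b, which takes part in activity-driven demethylation, was at 28.7 in E0, 804 in E1 and 389.8 in E4 (-1.02 ± 0.28, adjusted p = 0.00162), and its relative Gadd45g was lower as well (-1.04 ± 0.23).

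Circadian clock genes were lower in 10 of 19 cases, higher in 4 and not called in 5 (median -0.70). The clock runs on activators (Clock, Npas2 and Arntl) that switch on their own repressors (Per and Cry). Per1 was at 446 in E0, 2215 in E1 and 384 in E4 (-2.49 ± 0.17, adjusted p = 2.4e-46) and Per2 and Per3 had differences of -1.24 ± 0.19 and -1.60 ± 0.24. Cry1, Arntl and Npas2 were higher in E4 (1.10 ± 0.22, 0.65 ± 0.24 and 2.04 ± 0.33). Bhlhe41, a repressor also known as Dec2, was at 281 in E0, 256 in E1 and 1968 in E4 (2.87 ± 0.21). Rorb, a nuclear receptor, was at 87.1 in E0, 473 in E1 and 68.6 in E4 (-2.64 ± 0.30), and Hlf, an output factor, fell stepwise, at 1357 in E0, 869 in E1 and 360.2 in E4 (-1.25 ± 0.14). The labels give no time of day for any group.

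The median difference was -0.26 for cytosolic heat shock genes and 0.04 for genes of the endoplasmic reticulum response. Of 22 cytosolic heat shock genes 10 were lower, 3 higher and 9 not called, with Dnajb4 at 233 in E0, 735 in E1 and 182 in E4 (-1.97 ± 0.18), Dnajb1 at 179 in E0, 729.9 in E1 and 242 in E4 (-1.56 ± 0.20) and Hsph1, an exchange factor, higher at 1362 in E0, 2597 in E1 and 5884 in E4 (1.15 ± 0.15). The near-identical copies Hspa1a and Hspa1b (-1.61 ± 0.29 and -1.60 ± 0.27) can share reads. Of 21 genes of the endoplasmic reticulum response 3 were higher, 2 lower and 16 not called. The sensor gene Atf6 was at 823 in E0, 491 in E1 and 1461 in E4 (1.56 ± 0.16) and the chaperone gene Hspa5 at 1084 in E0, 2926 in E1 and 1408 in E4 (-1.05 ± 0.17).

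Glucocorticoid-responsive genes were split, 6 of 16 lower, 3 higher and 7 not called. Sgk1, a kinase, was at 252 in E0, 1947 in E1 and 302 in E4 (-2.64 ± 0.18), and Fkbp5, a chaperone of the glucocorticoid receptor, at 797 in E0, 336 in E1 and 1166 in E4 (1.75 ± 0.20), lowest in E1. In cholesterol synthesis and uptake 9 of 23 were lower, 2 higher and 12 not called. Msmo1, a sterol oxidase gene, was at 311 in E0, 498 in E1 and 284 in E4 (-0.79 ± 0.17) and Stard4, a sterol carrier, at 30.5 in E0, 91.3 in E1 and 25.7 in E4 (-1.66 ± 0.39), while Ebp, a sterol isomerase, was higher, at 89.0 in E0, 104 in E1 and 230.3 in E4 (1.11 ± 0.26). In the glycolysis list 6 of 20 were lower, 2 higher and 12 not called, beside 40.1% of all genes followed called either way. The transporter genes Slc16a1 and Slc2a1 led at 112 in E0, 533 in E1 and 123 in E4 (-2.06 ± 0.22) and 353 in E0, 951 in E1 and 357 in E4 (-1.39 ± 0.21).

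Respiratory chain and tRNA synthetase genes were called in 1 direction only. Of 41 nuclear genes of the respiratory chain 15 were higher, 0 lower and 26 not called (median 0.23; 1 lower at an unadjusted p below 0.05 in the same normal test), among them Cox6c at 1105 in E0, 677 in E1 and 1211 in E4 (0.83 ± 0.16) and Ndufb9 at 831 in E0, 514 in E1 and 868 in E4 (0.75 ± 0.15). Both were lowered in E1 and not called in E4 in the authors' deposited tables. With the length and GC trend removed, 6 were higher and 1 lower. Of 20 aminoacyl-tRNA synthetases, which load amino acids for translation, 8 were higher, 0 lower and 12 not called (median 0.30; 0 lower at an unadjusted p below 0.05), with Tars at 193 in E0, 127 in E1 and 263 in E4 (1.02 ± 0.22) and Hars at 372 in E0, 513 in E1 and 809 in E4 (0.65 ± 0.16).

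Regulators of RNA and of the cell cycle are read against the 40.1% of all genes called either way. Of 16 mRNA decay factors 3 were lower, 1 higher and 12 not called, with the antiproliferative gene Btg2 at 191 in E0, 885 in E1 and 243 in E4 (-1.80 ± 0.24). With the length and GC trend removed, 4 were higher. Of 27 splicing factors and kinases 6 were lower, 4 higher and 17 not called, with Srsf7 at 489.6 in E0, 1152 in E1 and 699 in E4 (-0.71 ± 0.15) and the kinase gene Clk4 at 192 in E0, 384 in E1 and 193 in E4 (-0.96 ± 0.22). Of 11 long noncoding RNAs 6 were lower, 2 higher and 3 not called (median -0.70, or -1.30 over the 9 with a mean count of at least 100). Neat1, a scaffold of paraspeckles, was at 101 in E0, 945 in E1 and 181 in E4 (-2.33 ± 0.26), Meg3 at 2271 in E0, 9937 in E1 and 3253 in E4 (-1.62 ± 0.25) and Snhg11 at 904 in E0, 4889.8 in E1 and 935 in E4 (-2.34 ± 0.29). Gas5 and Snhg12 were higher (0.45 ± 0.15 and 0.80 ± 0.31). Of 12 cell cycle regulators 3 were higher, 3 lower and 6 not called, with E2f3 at 193 in E0, 254 in E1 and 671 in E4 (1.37 ± 0.20) and Ccnd2 at 544 in E0, 702 in E1 and 317 in E4 (-1.12 ± 0.17).

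Among 21 transcription regulators expected later in the response 8 were lower, 7 higher and 6 not called (median -0.06). Besides Per1, Bhlhe41, Smad3, Smad7, Skil and Ski, the list held Rara and Rarb, retinoic acid receptors, with differences of -0.97 ± 0.30 and -2.96 ± 0.36, and the repressor genes Nfil3 and Bcl6, with -2.20 ± 0.25 and -1.13 ± 0.17. Id3 and Id2, inhibitors of basic helix-loop-helix factors, and Mef2d were higher (1.99 ± 0.32, 0.56 ± 0.18 and 0.57 ± 0.15). The median of the list lay close to that over all genes followed, and its members spread to both sides.

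Single genes, some of them also members of the gene lists, show the courses more plainly, and 6 kinds are drawn in the plot of group levels. The genes of each kind were picked by the course itself from the authors' calls and the test of the difference, so their values are descriptions.

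**Figure D4:**
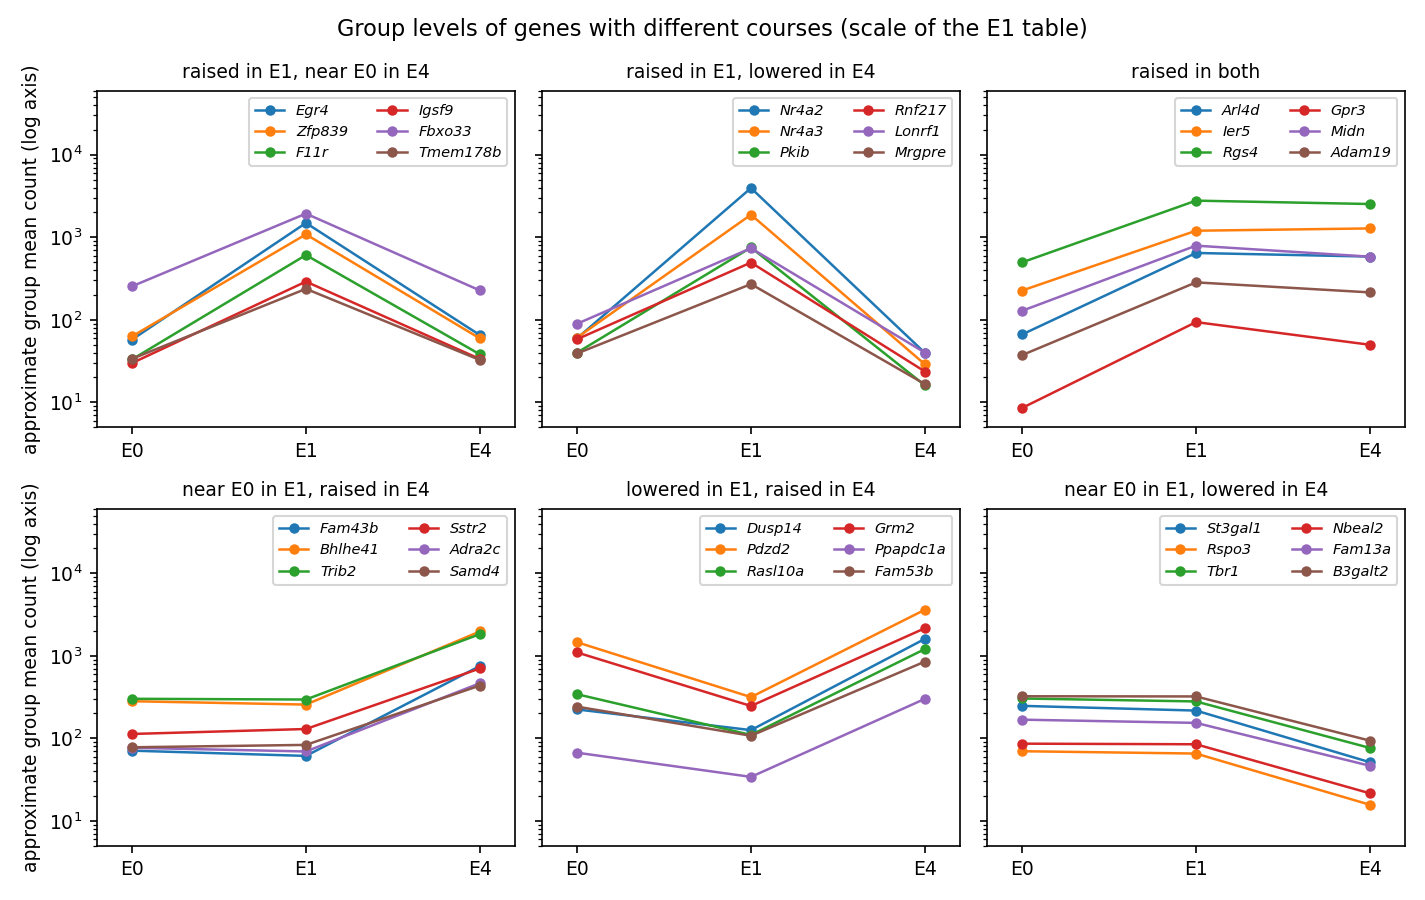
Lines join the approximate group mean counts (log axis, scale of the E1 table) of 6 genes per panel in E0, E1 and E4, with no error bars because the files hold no value per mouse. The panels show genes that peaked in E1 (top left and centre), were raised in both tables (top right), rose after E1 (bottom left and centre) or fell after it (bottom right).

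Some genes were high in E1 alone and back near E0 in E4. Igsf9, an immunoglobulin-type adhesion gene, was at 29.8 in E0, 290.3 in E1 and 33.5 in E4 (-2.93 ± 0.36), Col6a1, a collagen chain, at 51.0 in E0, 347 in E1 and 47.3 in E4 (-2.80 ± 0.27) and Gpc6, a cell surface glypican, at 56.8 in E0, 381 in E1 and 56.3 in E4 (-2.68 ± 0.27). Arhgef15, a guanine nucleotide exchange factor, was at 28.0 in E0, 198 in E1 and 28.8 in E4 (-2.63 ± 0.37) and Dph5, of diphthamide synthesis, at 37.0 in E0, 254 in E1 and 44.6 in E4 (-2.43 ± 0.31). Tmem178b was at 33.6 in E0, 237 in E1 and 32.5 in E4 (-2.75 ± 0.32). Others went past E0 to a lower level. Kitl, the ligand of the Kit receptor, was at 222 in E0, 1149 in E1 and 99.8 in E4 (-3.45 ± 0.20, adjusted p = 1.1e-63), and AA388235 at 48.2 in E0, 342 in E1 and 27.6 in E4 (-3.44 ± 0.31).

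Genes raised in both tables whose difference did not pass the test included Arl4d, a small GTPase, at 66.4 in E0, 645 in E1 and 583 in E4 (-0.16 ± 0.23, adjusted p = 0.734) and Rgs4, a regulator of G protein signalling, at 496 in E0, 2777 in E1 and 2527 in E4 (-0.14 ± 0.13). Midn, whose product guides early gene proteins to the proteasome, was at 128 in E0, 791 in E1 and 582 in E4 (-0.45 ± 0.21), and Dnajb5, a co-chaperone, at 842 in E0, 3551 in E1 and 3563 in E4 (0.01 ± 0.17). The guidance ligand gene Sema3e was at 80.7 in E0, 290.2 in E1 and 350.1 in E4 (0.25 ± 0.28), Rtn4rl2, a Nogo receptor relative, at 179 in E0, 622 in E1 and 789.9 in E4 (0.33 ± 0.24) and the transcription factor gene Sox11 at 237 in E0, 853 in E1 and 1191 in E4 (0.46 ± 0.21). Adam19, a membrane protease, was at 37.3 in E0, 284 in E1 and 215 in E4 (-0.68 ± 0.43) and Gpr3, a receptor active without ligand, at 8.54 in E0, 93.7 in E1 and 49.8 in E4 (-0.93 ± 0.44). A difference that did not pass the test does not show a level course for any of these genes.

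Genes near E0 in E1 and high in E4 included receptors. Sstr2, a somatostatin receptor, was at 113 in E0, 129.5 in E1 and 702 in E4 (2.33 ± 0.28), and Adra2c, an alpha 2 adrenergic receptor, at 76.7 in E0, 69.2 in E1 and 465 in E4 (2.66 ± 0.29). Fam43b was at 70.8 in E0, 61.2 in E1 and 751 in E4 (3.51 ± 0.30, adjusted p = 1.3e-29), the second largest gain. Samd4, a translational repressor, was at 77.8 in E0, 83.2 in E1 and 436 in E4 (2.29 ± 0.31), Sdk2, a synaptic adhesion gene, at 54.7 in E0, 49.2 in E1 and 265 in E4 (2.33 ± 0.36) and Galnt14, of protein O-glycosylation, at 129 in E0, 154 in E1 and 595 in E4 (1.92 ± 0.22). Fam210b was at 171 in E0, 151 in E1 and 861 in E4 (2.45 ± 0.21). In all 7 the E1 mean lay close to that of E0.

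A further course was a dip in E1 followed by a rise above E0. Pdzd2, a PDZ domain protein gene, was at 1458 in E0, 315 in E1 and 3615 in E4 (3.43 ± 0.21, adjusted p = 7.2e-59), and Rasl10a, a Ras-like GTPase, at 342 in E0, 109.7 in E1 and 1205 in E4 (3.38 ± 0.20). Plekha2, which binds membrane phosphoinositides, was at 943 in E0, 453 in E1 and 3314 in E4 (2.83 ± 0.17), Fam53b at 242 in E0, 107 in E1 and 849.8 in E4 (2.91 ± 0.23), Slc27a3, of the fatty acid transport family, at 119 in E0, 52.5 in E1 and 416 in E4 (2.83 ± 0.31) and Ppapdc1a, a lipid phosphatase, at 66.9 in E0, 34.1 in E1 and 301 in E4 (2.999 ± 0.33). Ccnjl, a cyclin relative, was at 104 in E0, 35.7 in E1 and 283 in E4 (2.80 ± 0.33). In these genes the gain was made up of a fall in E1 and a rise in E4. Dclk3, a doublecortin-like kinase, dipped deeper, at 261 in E0, 41.4 in E1 and 318 in E4 (2.78 ± 0.29), with its E4 level near that of E0.

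Genes that were low in E1 and back near E0 in E4 included Gprin1, of neurite outgrowth, at 1670.0 in E0, 594 in E1 and 1511 in E4 (1.33 ± 0.14), Lhfpl2 at 496 in E0, 143 in E1 and 586 in E4 (1.996 ± 0.18), Nrip2 at 294 in E0, 75.5 in E1 and 283 in E4 (1.83 ± 0.23) and Nrde2, an RNA surveillance gene, at 173 in E0, 42.5 in E1 and 177 in E4 (1.94 ± 0.28). Spry1 belonged here as well, at 123 in E0, 43.0 in E1 and 112 in E4. Others left E0 after E1 only. St3gal1, a sialyltransferase, was at 247 in E0, 217 in E1 and 51.3 in E4 (-1.97 ± 0.26), and Tbr1, a T-box factor of glutamatergic neurons, at 304 in E0, 279.6 in E1 and 76.4 in E4 (-1.81 ± 0.20). B3galt2, a galactosyltransferase, was at 323 in E0, 321 in E1 and 93.6 in E4 (-1.71 ± 0.21), Plk5 at 226 in E0, 258 in E1 and 65.4 in E4 (-1.91 ± 0.23) and Lamp5 at 159 in E0, 175 in E1 and 47.2 in E4 (-1.82 ± 0.25).

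Lastly, some genes were lowered in both tables with no difference called between E1 and E4. Tiam2, an activator of Rac, was at 475 in E0, 128 in E1 and 127 in E4 (-0.01 ± 0.23), Cacng5, an AMPA receptor auxiliary subunit, at 139.9 in E0, 40.2 in E1 and 40.2 in E4 (-0.00 ± 0.31) and the neurotrophin gene Ntf3 at 134 in E0, 34.0 in E1 and 30.1 in E4 (-0.17 ± 0.32). Htr1a, a serotonin receptor, was at 299.8 in E0, 89.9 in E1 and 63.2 in E4 (-0.49 ± 0.23), Mcm6, of the replication helicase, at 352 in E0, 123 in E1 and 91.1 in E4 (-0.42 ± 0.21) and Wnt9a at 103 in E0, 9.60 in E1 and 14.02 in E4 (0.38 ± 0.42). The means in E1 and E4 of Tiam2 and of Cacng5 were almost equal.

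Markers of the cell types in the tissue moved as well. All 19 granule neuron markers were among the genes followed, as the labelled tissue calls for, and their approximate summed level was 21960 in E0, 17271 in E1 and 29319 in E4. Of the 19, 11 were higher in E4 than in E1, 5 lower and 3 not called (median 0.63). Prox1, the factor that sets granule identity, had a difference of 1.07 ± 0.15 and Bcl11b was at 1511 in E0, 663 in E1 and 2004 in E4 (1.57 ± 0.15), while C1ql3, a synapse organiser, was at 1338 in E0, 1945 in E1 and 564 in E4 (-1.76 ± 0.14) and Tdo2 had -2.03 ± 0.27. Pdzd2, Plekha2 and Nrn1, described above, are among these markers and count in the summed level. Pdzd2 alone was at 1458 in E0, 315 in E1 and 3615 in E4, and Plekha2 at 943 in E0, 453 in E1 and 3314 in E4. Genes of large gain thus weigh heavily in the sum. In bulk tissue, fewer cells of a type and less RNA per cell cannot be told apart.

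Of 18 GABAergic interneuron markers 13 were followed, with 9 lower in E4, 0 higher and 4 not called (median -1.10; 0 higher at an unadjusted p below 0.05 in the same normal test). Gad2, a GABA-synthesising enzyme, was at 361 in E0, 1090.5 in E1 and 369 in E4 (-1.54 ± 0.16), the vesicular GABA transporter gene Slc32a1 at 149.9 in E0, 364 in E1 and 122 in E4 (-1.55 ± 0.21) and Kit at 92.6 in E0, 347 in E1 and 96.0 in E4 (-1.80 ± 0.26). The summed level of the 13 was 5691 in E0, 8400 in E1 and 5819 in E4, so that E1 stood apart and E0 and E4 were alike. With a mean count minimum of 100, 5 of 9 were lower and the median was -0.53. Genes described above that interneurons also express, such as Kcnc2, Scn1a and Gabra3, peaked in E1 with these markers; the part of interneuron RNA in their values was not tested.

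Astrocyte markers went the other way, with 6 of 17 higher in E4, 0 lower and 11 not called (median 0.31; 0 lower at an unadjusted p below 0.05 in the same normal test). Aldh1l1 was at 432 in E0, 199 in E1 and 378 in E4 (0.90 ± 0.19) and Gfap at 2969 in E0, 1521 in E1 and 3885 in E4 (1.30 ± 0.27), and the summed level was 58750 in E0, 47588 in E1 and 54728 in E4. Fgfr3 and Aldoc, counted above among receptors and glycolysis, are astrocyte markers too. For pyramidal neurons of the neighbouring CA fields 10 of 16 markers were followed, with 6 lower, 2 higher and 2 not called. Cpne7 was at 328 in E0, 1068 in E1 and 249.5 in E4 (-1.999 ± 0.36) and Neurod6 had -2.82 ± 0.58, while Fibcd1 was at 164 in E0, 92.8 in E1 and 477 in E4 (2.25 ± 0.29). The summed level of the 10 CA markers was 7604 in E0, 9923 in E1 and 14954 in E4. Nptx1, described above among the synaptic genes, alone was at 5191 in E0, 5331 in E1 and 12553 in E4. The rise of the sum to E4 rests on this gene. Without Nptx1 the summed level was highest in E1, and E0 and E4 were alike.

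The remaining marker lists gave few calls. Oligodendrocyte markers had 2 of 15 higher and 2 lower (summed level 7135, 7300 and 6938 in E0, E1 and E4), microglia markers 1 of 11 each way (3096, 2390 and 2829), and endothelial and mural markers 2 of 11 lower and 0 higher by the normal test, with 0 higher at an unadjusted p below 0.05 (966, 1400 and 973). Of the 16 choroid plexus, ependymal and meningeal markers 3 were followed, with summed levels of 325, 230 and 181. Ogn, a matrix protein gene of the meninges, made up much of their drop, at 105 in E0, 80.7 in E1 and 7.82 in E4 (-3.03 ± 0.34). The neurogenic lineage had 1 of 8 higher and 2 lower, with Neurod2 at 1099 in E0, 999.5 in E1 and 3169.7 in E4 (1.64 ± 0.16), Dcx, a marker of immature neurons, at 110.1 in E0, 377 in E1 and 105 in E4 (-1.78 ± 0.26) and Neurod1 at 390.1 in E0, 334 in E1 and 135 in E4 (-1.27 ± 0.20). No marker in the 9 lists was listed at a mean count of 0 in either table. The part of these cell types in the gene lists above was not tested.

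The direction of a difference also went with the transcript. Of 9787 genes with an annotated transcript, the quintile of lowest GC content had 11.2% higher and 25.9% lower in E4, and quintile 4 had 25.4% and 15.8%. Quintile 5, of highest GC content, had 23.4% and 19.7%, so the shares did not shift steadily with GC content. The quintile of shortest transcripts had 24.9% higher and 12.6% lower, and that of the longest 18.3% and 27.7%. Median transcript length was 3448 bases among genes called higher and 4308 among those called lower, and median GC content 51.4% and 48.3%. The median log2 fold change in E1 was 0.23 in quintile 1 of GC content, -0.19 in quintile 4 and -0.12 in quintile 5. In E4 it was 0.14, -0.03 and -0.04, all from the authors' deposited tables. The E1 libraries were also the shallowest, with about 1940000, 3360000 and 4760000 reads, as recovered from the steps of single reads in the authors' deposited mean counts, against 10020000 to 13550000 for E4 and 6140000 to 10960000 for E0. Over the genes followed, the median SE was 0.169 for E1 and 0.129 for E4 (the authors' deposited tables). Depth and group cannot be told apart here, and the part of transcript composition in single genes was tested only by removing its trend, which left 1924 genes higher and 1925 lower.

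**Figure D5:**
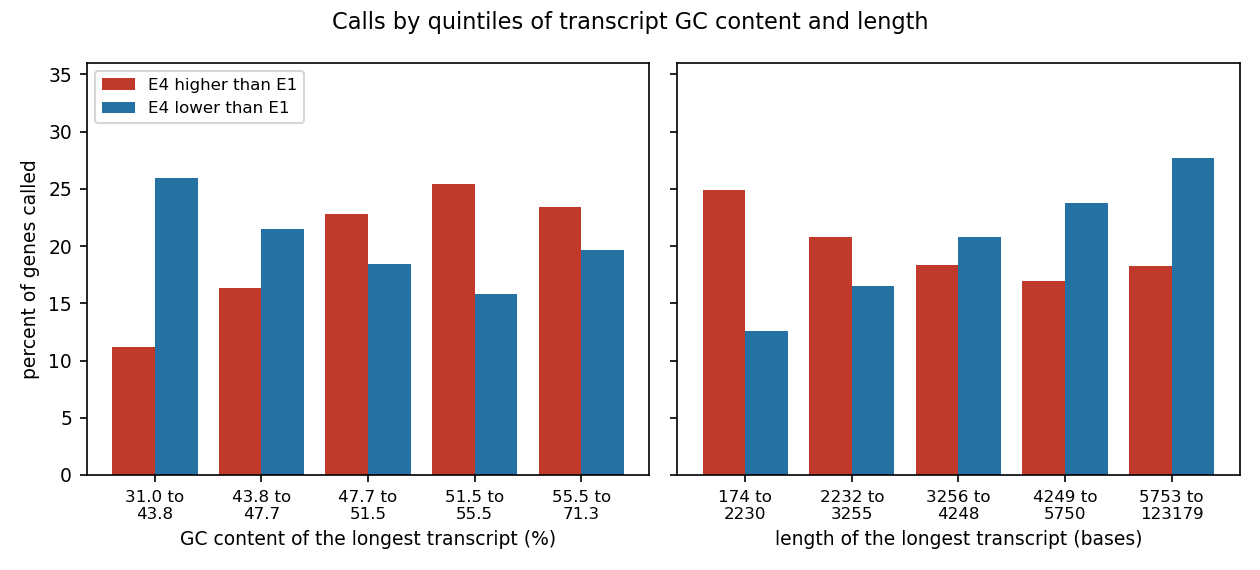
Bars give the percent of genes called higher (red) or lower (blue) in E4 than in E1 within quintiles of GC content (left) and length (right) of the longest annotated transcript. Calls of lower expression were most frequent in the lowest GC quintile (25.9%) and in the longest quintile (27.7%).

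The minimum of 50 decides which genes are described. The authors' deposited tables for E1 and E4 put Rimkla (50.02 and 99.33) and Kin (50.07 and 96.86) just inside it by mean count. Ankrd49 (49.96 and 149.2) and Sfxn4 (58.48 and 49.99) lay just outside, by the same tables. The early transcription factor genes Fos (297.5 and 48.99) and Npas4 (107.8 and 42.59) fell short of it in the E4 table of the authors' deposited tables. Their differences were -4.13 ± 0.36 and -2.66 ± 0.44. The minimum was reached in the E1 table alone by 175 genes and in the E4 table alone by 1267, whose scale is 1.89 times that of the E1 table.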

How the data were processed

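RNA from the dentate gyrus of 9 mice (3 each in E0, E1 and E4) was sequenced, and the authors deposited 2 tables, E1 against E0 and E4 against E0, of 24015 genes each. Per the file headers, the deposited values are a mean normalised count over both groups (a signal with no whole-number counts), a log2 fold change with its SE, a Wald statistic (a score), and a p-value with its Benjamini-Hochberg adjusted form. TopHat2, DESeq2 and the build mm9 are named in the submitters' processing notes; versions and the use of strand in counting were not given there. Date-like entries stand in place of 27 symbols in the table for E1, and these were left out. No value per library was used here, so p-values rest on the authors' SEs, which come from a model fitted over 3 libraries a group.

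For each of 17652 genes with a p-value in both tables, the E1 value was subtracted from the E4 value of the authors' deposited log2 fold changes, and the SE of this difference was the root of the summed squares of both SEs. The two-sided p of the ratio, from the normal distribution, was adjusted by Benjamini-Hochberg, with a threshold of 0.05. This error counts the shared E0 spread in full, and the fold changes are shrunken. Group levels were recovered from mean counts and fold changes unshrunk with prior widths of 1.0 (E1) and 0.8 (E4), under which the E0 levels of the tables differed with an SD of 0.00994 on the log2 scale (0.0296 as deposited). Length and GC content are those of the longest GENCODE transcript, and promoters came from RefSeq, both matched by symbol. Python 3.11.15 with numpy 2.4.6, scipy 1.17.1, pandas 2.3.3 and matplotlib 3.10.9 was used, and the scripts were tested on simulated data, where changes of 2 log2 units were recovered in full and some of 1 log2 unit were missed, so a gene not called may still differ.

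The genes followed and the 36 gene lists (27 by role, 9 of cell type markers) were chosen with earlier results of these data known. Named by rule were the 15 largest drops and gains, the 4 genes of smallest adjusted p in each list, fixed activity genes and up to 10 genes of each course; histone, ribosomal, small RNA and predicted genes were passed over. Some genes that the rule names are not reported here. Other list members named beside these were chosen after their values were seen. In all 11 alternatives were tried, of which 2 (another undoing of the shrinkage, and the count without marker genes and genes of large E1 SE) were chosen after seeing the data.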

Additional observations from a re-analysis of the deposited data

Results flagged for a closer look

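Some genes moved in opposite directions from E0 at the 2 stages, raised in E1 and lowered in E4 by the calls in the authors' deposited tables, and the difference between the stages passed its own test. The 8 with the largest drops were Nr4a2 (-6.46), Nr4a3 (-5.85), Pkib (-4.90), Rnf217 (-4.16), Lonrf1 (-4.08), Mrgpre (-3.81), Kitl (-3.45) and AA388235 (-3.44), in log2 units of E4 minus E1. The nuclear receptors Nr4a2 and Nr4a3 thus ended below the E0 level by the authors' calls. For Nr4a2 this was narrow (adjusted p = 0.0444 in E4, against 2.5e-04 for Nr4a3, authors' Wald test). Pkib is the one among them whose E1 SE stood far apart, at 2.56 times that of like genes.

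The order was turned round in others, lowered in E1 and raised in E4 by the authors' deposited tables, with a difference that passed the test, and the 8 largest gains are given. Dusp14 differed by 3.58, Pdzd2 by 3.43, Rasl10a by 3.38, Grm2 by 3.05, Ppapdc1a by 3.0, Fam53b by 2.91, Slc27a3 by 2.83 and Plekha2 by 2.83. Pdzd2 and Plekha2 are granule neuron markers. The summed level of those markers, lowest in E1 and highest in E4, contains both genes and is no separate observation. The part of a shift of the other markers in the values of Pdzd2 and Plekha2 was not tested.

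Outside the genes followed, 32 genes had a mean count of at least 50 in the table for E1 and below 1 in that for E4, although both tables share the E0 libraries. They entered no comparison.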

How the results depend on the processing

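The counts of genes that gained (1946) or dropped (1990) from E1 to E4 stayed within 1.5 times under 10 of the 11 alternatives. When a difference of at least 1 was also asked for, 580 were higher and 879 lower, and the share of higher calls was 39.8% in place of 49.4%. The widest other counts came with the E0 error shared between the tables removed (2913 higher and 2663 lower) and with an adjusted p below 0.01 (1414 and 1572). With the shrinkage undone by the narrowest prior, Arc turned from a drop to 0.79 (adjusted p = 0.234), the only one of 203 named genes to change direction under any alternative. The removal of the length and GC trend ended the call of 5 named genes, among them Mbp and Btg1. All 3936 called genes had the same direction from the mean counts alone. Both mean counts include the shared E0 libraries, so this agreement largely follows from how they are built and is no separate check. No paired analysis was possible because the files hold no value per library, and leaving out single libraries was not possible for the same reason. The approximate depth of 1940000 to 4760000 reads in E1 limits the precision of every difference.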
